A study of Mus musculus with 24 samples.

Results

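Glyceroneogenesis and glycerol handling in white fat were followed through 7 genes, Pck1, Pck2, Gpd1, Gpd2, Gk, Aqp7 and Pdk4. They were taken by gene symbol from the deposited expression table, which lists 35275 genes, and all 7 were found. Gk is listed there as Gyk and was matched by its identifier ENSMUSG00000025059. The 7 genes were chosen with earlier results of these data known. Shares of all genes given beside their counts are therefore a background and not an independent test. The study sequenced RNA from 2 white fat pads, gonadal and inguinal, of mice with a conditional adipose FoxO1 knockout and of control mice with the floxed FoxO1 gene. Its stated purpose was to find what the transcription factor FoxO1 regulates. The 4 groups (gonadal control, gonadal knockout, inguinal control, inguinal knockout) each held 6 libraries, and the library names gave 6 mice with 2 libraries per pad. The mouse was the replicate (n = 3 per group), with control mice M6, M7 and M10 and knockout mice M5, M9 and M12. No treatment is named in the labels, and the sources used here do not give the age or sex of the mice, the Cre driver or the exons deleted.

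A fat cell stores fatty acids by joining them to glycerol 3-phosphate. That backbone can be made from glucose, from pyruvate or lactate by glyceroneogenesis, or from free glycerol by glycerol kinase. In glyceroneogenesis, pyruvate is carboxylated to oxaloacetate, phosphoenolpyruvate carboxykinase converts it to phosphoenolpyruvate, and the steps of glycolysis run backwards to dihydroxyacetone phosphate, which glycerol 3-phosphate dehydrogenase reduces. White fat is known for high cytosolic carboxykinase, for little glycerol kinase and for releasing glycerol through an aquaglyceroporin, and in liver FoxO1 is a known activator of the carboxykinase gene.

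Levels are given in FPKM, read numbers scaled to the length of the gene and to the reads assigned in the library, so that levels of different genes can be compared per length. The libraries held 14953657 to 25438811 assigned reads, and a single library held between 226 reads (Gk) and 61878 reads (Pck1) of a member. The targeted Foxo1 separated the genotypes without overlap in each depot, with knockout pads at 4.01 to 4.46 against 7.87 to 13.6 FPKM in gonadal fat and 2.49 to 5.69 against 13.0 to 19.7 FPKM in inguinal fat. The adipocyte markers Adipoq and Plin1 were abundant in all 4 groups, with group means of 734.9 to 2134 FPKM for Adipoq and 362 to 1061 FPKM for Plin1. The pads were whole tissue, so a smaller share of one cell type and less RNA per cell cannot be told apart in any value below.

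Across the 4 groups the same 2 genes led. Pck1 had the highest level of the 7 and Gpd1 the next, with no overlap between the mice of these neighbours in any group. In inguinal fat Pdk4 and Aqp7 followed, overlapping each other in both genotypes, then Gpd2, Pck2 and Gk, each without overlap with its neighbour. In gonadal fat Aqp7 came next after Gpd1, without overlap with Pck2, and the last 4 genes (Pck2, Gk, Gpd2 and Pdk4) overlapped with their neighbours in both genotypes. Between the 2 carboxykinase transcripts, the ratio of Pck1 to Pck2 was 7.43 to 8.14 in gonadal control, 18.4 to 23.8 in gonadal knockout, 72.6 to 165 in inguinal control and 151 to 215 in inguinal knockout pads. The genotypes did not overlap in gonadal fat and overlapped in inguinal fat, and these ratios were not tested.

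**Figure D1:**
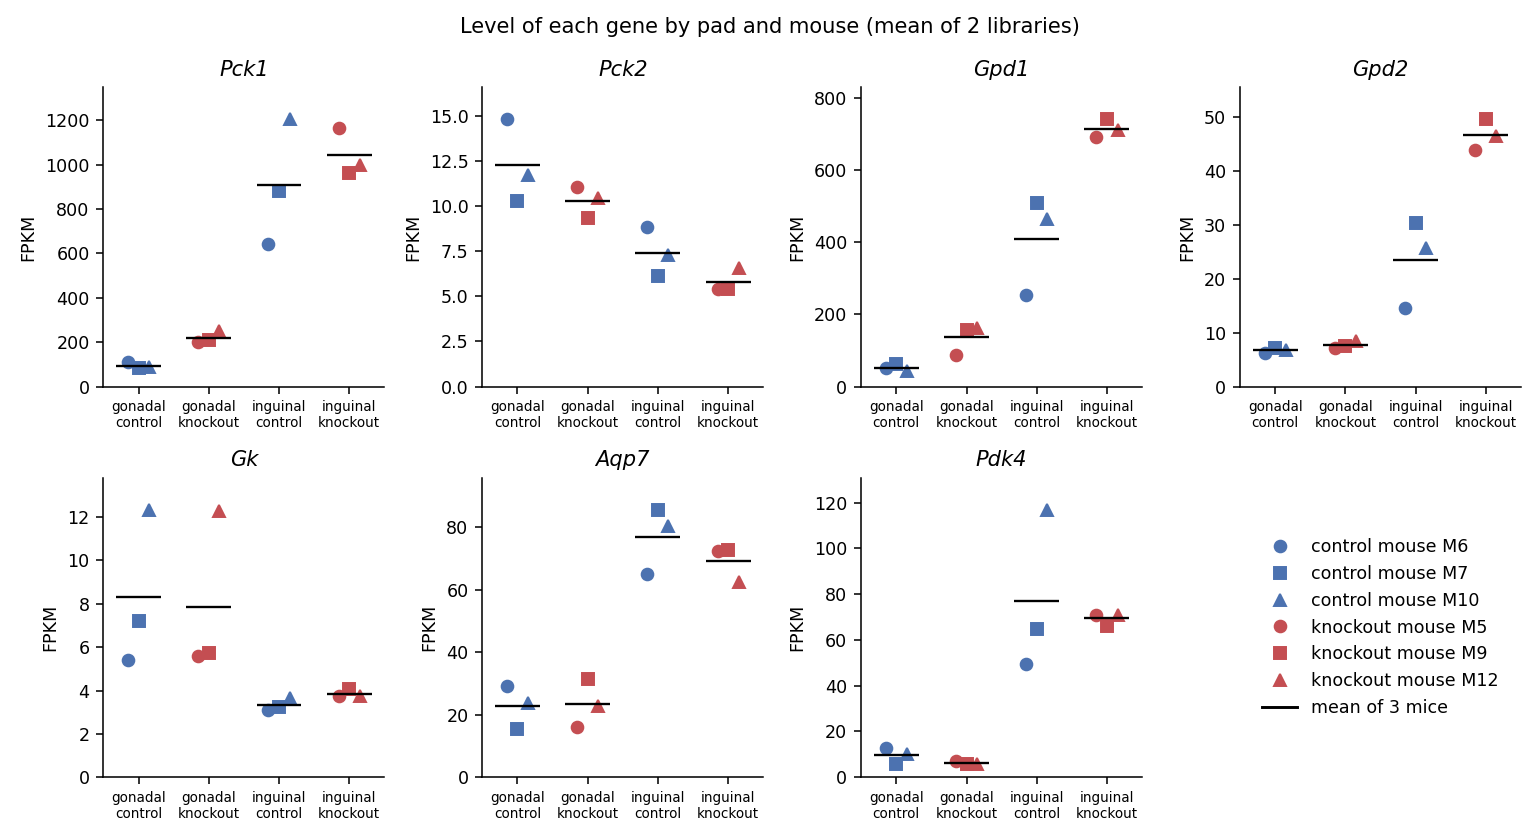
FPKM of each gene (y axis, linear from 0) in each of the 4 groups (x axis), with 1 point per mouse as the mean of its 2 libraries and a bar at the mean of 3 mice. Pck1, Gpd1, Gpd2, Aqp7 and Pdk4 are higher in inguinal than in gonadal fat in every mouse, and Pck2 and Gk are lower.

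Between the pads of control mice, 5 genes were lower in gonadal than in inguinal fat and 2 were higher, and all 7 passed limma at an adjusted p of 0.05. Of all 14505 genes tested, 41.4% passed, 14.5% lower and 26.9% higher in gonadal fat. In knockout mice 6 of the 7 passed, 5 lower and 1 higher, against 47.8% of 14593 genes, with 12.7% lower and 35.1% higher. The median log2 difference of the 7 genes was -1.77 in control and -2.24 in knockout mice, beside medians over all genes of 0.184 and 0.269. The split of all called genes depended on the scaling, with 3904 higher and 2106 lower in control mice as deposited and 3072 higher and 2843 lower with TMM factors, and with 5122 and 1849 against 2961 and 3025 in knockout mice. No member changed direction between the pads under any alternative scaling. The fits between pads, and those of the difference between knockout effects, had no mouse term. They counted the 2 pads of a mouse as independent values. With the mouse as a block, no call of the 7 genes changed. Summed FPKM of 10 adipocyte markers was also lower in gonadal pads, at 14030 to 23410, than in inguinal pads, at 28760 to 47020. Centring each pad on those markers moved the median of all genes to 1.57 in control and 1.11 in knockout mice, and that of the 7 genes to -0.39 and -1.39. With that centring 2 members were called higher and 3 lower in control mice, and 2 higher and 5 lower in knockout mice.

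Between knockout and control mice no member passed limma's adjusted p of 0.05 in either pad, where 0.0% of 14851 gonadal genes and 0.022% of 13621 inguinal genes did. At an unadjusted limma p under 0.05, 2 members were higher and 0 lower in each pad, Pck1 and Gpd1 in gonadal fat and Gpd1 and Gpd2 in inguinal fat, against 4.4% and 3.29% of all genes higher and 4.3% and 11.6% lower. Knockout mice lay wholly above control mice for 3 members in each pad (Pck1, Gpd1 and Gpd2 in gonadal fat, Gpd1, Gpd2 and Gk in inguinal fat) and wholly below for 0, where 6.79% of gonadal and 5.28% of inguinal genes lay wholly above and 7.54% and 17.3% wholly below. On rebuilt read counts, edgeR called 0 members in each pad and DESeq2 called 2 higher, the same pairs that limma gave at the unadjusted p. With each library taken as a replicate, limma called 2 members in each pad as well. The median log2 difference was 0.04 in gonadal fat, beside -0.02 for all genes, and 0.19 in inguinal fat, beside -0.10. With adipocyte centring the members' median turned to -0.23 in gonadal fat (2 higher and 5 lower), beside -0.29 for all genes. It became 0.46 in inguinal fat (6 higher and 1 lower), beside 0.18. The 10 centring markers differed by genotype themselves, so centred values carry that difference as well. In gonadal fat 5 of them lay wholly above controls in knockout mice and 1 wholly below, and in inguinal fat 1 and 3. Cfd, 1 of the 10, had inguinal means of 4382 FPKM in knockout and 11390 FPKM in control mice. Nothing in the sources says whether mice shared a litter or a day, so these p-values measure the spread between 3 mice and 3.

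**Figure D2:**
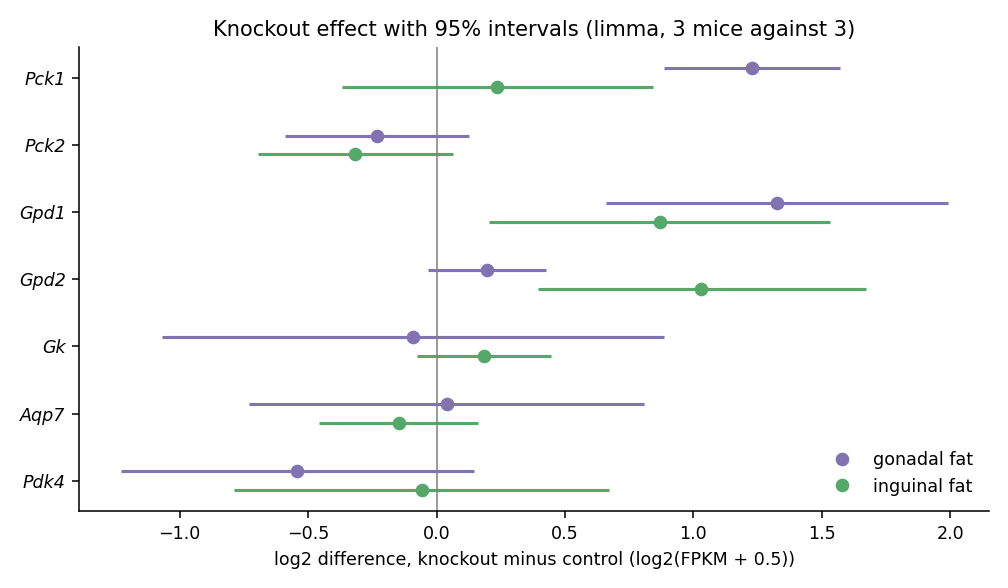
Log2 difference between knockout and control mice (x axis, on log2(FPKM + 0.5)) for each gene in gonadal and inguinal fat, with 95% intervals from limma on 3 mice against 3. The intervals lie above 0 for Pck1 and Gpd1 in gonadal fat and for Gpd1 and Gpd2 in inguinal fat, and include 0 for all others.

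Pck1 encodes the cytosolic phosphoenolpyruvate carboxykinase, the enzyme that commits oxaloacetate to glyceroneogenesis, and spans bases 173153048 to 173159273 of chromosome 2, plus strand (mm10). In gonadal fat it stood at 110.0, 83.5 and 88.7 FPKM in control mice M6, M7 and M10, and at 202.8, 209.4 and 248.9 FPKM in knockout mice M5, M9 and M12. All 3 knockout mice lay above all 3 controls, with a control mean of 94.0 ± 14 FPKM and a knockout mean of 220.4 ± 24.9 FPKM (SD, n = 3). This was a log2 difference of 1.23 (SE 0.14), with a limma adjusted p of 0.395 and an exact two-sided permutation p of 0.1, the smallest that 3 mice against 3 allow. By limma p it had rank 4 of 14851 genes. Left-out mice gave 1.14 to 1.35, and centring on the adipocyte markers gave 0.96. Over 16 alternatives the adjusted p ran from 8.29e-14 with DESeq2 to 0.95 in limma, and 2 of them passed.

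In inguinal fat Pck1 stood at 642.1, 881.9 and 1204 FPKM in control mice M6, M7 and M10 and at 1166, 960.1 and 997.5 FPKM in knockout mice M5, M9 and M12. The groups overlapped, since control mouse M10 was the highest of the 6 and M6 the lowest. Knockout minus control was 0.24 on the log2 scale (SE 0.25, 95% interval -0.37 to 0.84, limma adjusted p 0.719), and without M6 it was 0.01. The gonadal effect exceeded the inguinal one by 0.99 (SE 0.29) on the log2 scale. Its limma p was 0.00705 unadjusted and 0.927 adjusted, from a fit in which the 2 pads of a mouse counted as independent. In this comparison limma called 0.0% of 14577 genes, and 4.97% had an unadjusted p under 0.05. Centring on the adipocyte markers reduced the gap to 0.45, and leaving out M6 raised it to 1.34.

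Seen by mouse, the pad gap of Pck1 was narrower in the knockout mice. Inguinal over gonadal FPKM was 5.84, 10.6 and 13.6 in control mice M6, M7 and M10, and 5.75, 4.59 and 4.01 in knockout mice M5, M9 and M12. Every knockout mouse lay below every control mouse, although M6 and M5 were close. This difference had an exact permutation p of 0.1, the smallest that 3 mice against 3 allow, and a limma adjusted p of 0.927. The share of all genes that separate in this way is not given here. The log2 difference of gonadal minus inguinal fat was -3.23 (SE 0.25) in control and -2.24 (SE 0.13) in knockout mice, with limma adjusted p of 0.00058 and 0.000271.

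Pck2 encodes the mitochondrial carboxykinase, which makes phosphoenolpyruvate inside the mitochondrion, and spans bases 55540266 to 55550017 of chromosome 14, plus strand. It ran opposite to Pck1 between the pads. Gonadal levels were 14.8, 10.3 and 11.7 FPKM in control mice M6, M7 and M10 and 11.03, 9.35 and 10.4 FPKM in knockout mice M5, M9 and M12. Inguinal levels in the same order were 8.84, 6.11 and 7.29 FPKM in control and 5.43, 5.43 and 6.59 FPKM in knockout mice. Every mouse had more Pck2 in its gonadal than in its inguinal pad, by 1.58-fold to 2.03-fold. The log2 pad difference was 0.69 (SE 0.18, limma adjusted p 0.026) in control and 0.77 (SE 0.11, limma adjusted p 0.00271) in knockout mice. The control call was lost without M10 (adjusted p 0.172 in limma) and the knockout call without M5 (0.0518), while the other 12 of 13 alternatives passed in each genotype.

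By genotype the Pck2 groups overlapped in each pad, although the mean was lower in knockout mice in both. Knockout minus control was -0.23 (SE 0.15, limma adjusted p 0.73) in gonadal and -0.32 (SE 0.16, limma adjusted p 0.417) in inguinal fat. Without control mouse M6, the highest of its group in each pad, the differences were -0.09 and -0.19. Centring on the adipocyte markers gave -0.50 and -0.04. An antisense gene, Gm10876, overlaps Pck2 in the annotation, and the sources used here do not say whether reads were counted by strand, here or for the overlapping genes named below.

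The stretches before the start sites of these 2 carboxykinase genes are shown because the genes ran in opposite directions between the pads. They come from RefSeq on GRCm38.p6, both on the plus strand, read 5′ to 3′, as chr2:173152823-173153047 for Pck1 and chr14:55540016-55540265 for Pck2, and capitals mark the only matches to the searched letters.
Pck1: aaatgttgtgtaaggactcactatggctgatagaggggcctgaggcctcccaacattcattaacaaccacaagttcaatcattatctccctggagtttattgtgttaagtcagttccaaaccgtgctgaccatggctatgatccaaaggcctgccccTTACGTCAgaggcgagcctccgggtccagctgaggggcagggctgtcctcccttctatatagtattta
Pck2: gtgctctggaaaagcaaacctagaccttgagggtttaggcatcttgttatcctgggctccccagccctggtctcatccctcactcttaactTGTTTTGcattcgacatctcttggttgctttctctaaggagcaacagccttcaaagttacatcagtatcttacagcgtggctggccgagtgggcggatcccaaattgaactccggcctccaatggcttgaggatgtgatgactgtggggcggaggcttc

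The Pck1 capitals are TTACGTCA, the letters of its known cyclic AMP response element, with the first base 93 bases before the RefSeq start site. That site lies 25 bases inside the gene as annotated for the expression values, and these 25 bases are left out of the Pck1 stretch. The Pck2 capitals are the reverse strand of CAAAACA, the insulin response sequence, at 159 bases before the RefSeq start site. Promoter windows of 300 bases, from 250 before to 50 after a start site, were held for 6 of the 7 genes (8 windows in all), and both strands were searched. TTACGTCA occurred in 0.497% of 32817 mouse windows and CAAAACA in 6.29%. The FOXO consensus letters GTAAACA, found in 3.65% of windows, were in no window of these 6 genes. Only exact letters inside these windows were searched, so a missing match does not show that a FOXO site is absent. TGACGTCA (1.79%) and the direct repeat of AGGTCA with 1 base between its copies (0.0396%) were in no window of the 6 genes either. The E-box CACGTG (7.15%) was in the Gk window. AGGTCA (16.3%), which is also contained in the longer repeat, was in both Aqp7 windows. These windows overlap, and the match in one is the same copy as a match in the other. Gpd2 and Pdk4 had no match in their windows.

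Gpd1 encodes the cytosolic glycerol 3-phosphate dehydrogenase, which makes glycerol 3-phosphate from dihydroxyacetone phosphate, and spans bases 99717515 to 99725005 of chromosome 15, plus strand. It was the only member with knockout mice above control mice in both pads and an unadjusted limma p under 0.05 in both. Gonadal levels were 51.4, 62.1 and 44.4 FPKM in control mice M6, M7 and M10 and 87.5, 158.1 and 163.2 FPKM in knockout mice M5, M9 and M12. The groups did not overlap, and knockout mouse M5 stood well below M9 and M12. Knockout exceeded control by 1.32 on the log2 scale (SE 0.27, 95% interval 0.66 to 1.99), with a limma adjusted p of 0.421 and an exact permutation p of 0.1. It was 1.61 without M5 and 1.06 after centring on the adipocyte markers, and 2 of 16 alternatives passed, with adjusted p from 0.000246 in DESeq2 to 0.95 in limma.

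In inguinal fat Gpd1 stood at 252.7, 509.7 and 463.7 FPKM in control mice M6, M7 and M10 and at 692.3, 740.8 and 710.7 FPKM in knockout mice M5, M9 and M12. Knockout mice were tightly grouped, with an SD of 24.4 FPKM against 137 FPKM in controls, and control mouse M6 stood far below the rest. The inguinal log2 difference was 0.87 (SE 0.27, 95% interval 0.20 to 1.53), with a limma adjusted p of 0.241 and an exact permutation p of 0.1. Without M6 the difference was 0.55 (SE 0.09, limma adjusted p 0.221) and the groups still did not overlap. Adjusted p over 16 alternatives, DESeq2 and edgeR among them, ran from 0.00847 to 0.503, and 2 passed. The knockout effect in gonadal minus inguinal fat was 0.45 (SE 0.41, 95% interval -0.46 to 1.37), which was not distinguishable from 0 with 3 mice a group, and it was -0.09 after centring on the adipocyte markers.

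Over the mean of both pads of a mouse, Gpd1 was higher by 1.10 (SE 0.20, limma adjusted p 0.138), and Pck1 by 0.73 (SE 0.11, limma adjusted p 0.133). Summing the reads of both pads before an edgeR test, which gives most weight to inguinal fat, took Pck1 to 0.45. The antisense gene Gm16537 overlaps Gpd1 and reached at most 0.441 FPKM in any pad. The ratio of Gpd1 to Pck1 was 0.467, 0.743 and 0.501 in gonadal control pads and 0.432, 0.755 and 0.656 in gonadal knockout pads, so these groups overlapped. In inguinal fat the ratio was 0.393, 0.578 and 0.385 in control pads and 0.594, 0.772 and 0.713 in knockout pads. All knockout mice lay above all controls, by 0.594 against 0.578 at the nearest. This separation was not tested, and 3 mice against 3 allow no exact permutation p below 0.1.

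Gpd2 encodes the mitochondrial glycerol 3-phosphate dehydrogenase, which oxidises glycerol 3-phosphate back to dihydroxyacetone phosphate and passes its electrons to the respiratory chain. It spans bases 57237635 to 57370719 of chromosome 2, plus strand, where the non-coding gene A930012O16Rik, at most 1.51 FPKM, overlaps it. Inguinal levels were 14.7, 30.4 and 25.7 FPKM in control mice M6, M7 and M10 and 43.9, 49.6 and 46.6 FPKM in knockout mice M5, M9 and M12. Every knockout mouse was above every control, and M6 was again the lowest control. Its inguinal log2 difference was 1.03 (SE 0.26, 95% interval 0.40 to 1.67), with a limma adjusted p of 0.184 and an exact permutation p of 0.1. It was 0.73 (SE 0.10, limma adjusted p 0.195) without M6, and over 16 alternatives, DESeq2 and edgeR among them, adjusted p ran from 0.00283 to 0.469 with 2 passing.

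In gonadal fat Gpd2 was low and nearly level, at 6.26, 7.17 and 6.76 FPKM in control mice M6, M7 and M10 and 7.24, 7.62 and 8.53 FPKM in knockout mice M5, M9 and M12. Knockout mice lay above controls by a narrow margin, 7.24 against 7.17 FPKM at the nearest. Here the log2 difference was 0.20 (SE 0.09, limma adjusted p 0.63), and it turned to -0.07 when pads were centred on the adipocyte markers. The knockout effect was smaller in gonadal than in inguinal fat by 0.83 (gonadal minus inguinal -0.83, SE 0.30), with a limma unadjusted p of 0.0186 and adjusted p of 0.978. Leaving out M6 gave -0.58, and adipocyte centring gave -1.37.

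The transcript ratio of Gpd1 to Gpd2, whose enzymes make and oxidise glycerol 3-phosphate, separated the genotypes in each pad. This separation was not tested, and 3 mice against 3 allow no exact permutation p below 0.1. The ratio of Gpd1 to Gpd2 was 8.21, 8.66 and 6.56 in gonadal control pads and 12.1, 20.8 and 19.1 in gonadal knockout pads, without overlap. In inguinal fat it was 17.2, 16.8 and 18.0 in control and 15.8, 14.9 and 15.3 in knockout pads, again without overlap and in the other direction. Both genes were lower in gonadal than in inguinal fat, Gpd1 by a log2 difference of -2.89 (SE 0.29) in control and -2.44 (SE 0.25) in knockout mice and Gpd2 by -1.68 (SE 0.26) and -2.51 (SE 0.09). The limma adjusted p was 0.00108 and 0.000935 for Gpd1 and 0.00409 and 0.000113 for Gpd2. For Gpd2 the control call was lost after centring on the adipocyte markers (-0.29, adjusted p 0.35 in limma) and without M10 (adjusted p 0.0609), and 11 of 13 alternatives passed.

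Gk encodes glycerol kinase, which returns free glycerol to glycerol 3-phosphate, and spans bases 85701937 to 85776819 of chromosome X, minus strand. It was the lowest of the 7 genes in inguinal fat, at 3.09, 3.26 and 3.66 FPKM in control mice M6, M7 and M10 and 3.73, 4.08 and 3.76 FPKM in knockout mice M5, M9 and M12. Knockout mice lay above controls by as little as 3.73 against 3.66 FPKM. The log2 difference was 0.19 (SE 0.11, 95% interval -0.08 to 0.45, limma adjusted p 0.485, exact permutation p 0.1). The 2 libraries of a pad differed by up to 26.3% of their mean for this gene over the 12 pads, more than this margin.

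Gonadal Gk stood at 5.42, 7.23 and 12.3 FPKM in control mice M6, M7 and M10 and at 5.59, 5.73 and 12.3 FPKM in knockout mice M5, M9 and M12. One mouse of each genotype, M10 and M12, had about the same high level and the other 4 were close together. The knockout difference was -0.09 on the log2 scale (SE 0.40, limma adjusted p 0.976), with a 95% interval of -1.07 to 0.88, and its sign changed when M5, M9 or M10 was left out (0.09, 0.08 and 0.22). The 2 high mice were also those with the most RNA from the epididymis, the sperm-storing duct that the gonadal fat of males adjoins, and the part of that RNA in the Gk values was not tested. Summed FPKM of 10 epididymis markers was 5960 in M12 and 3628 in M10, 448.3 in M6, and 0.102, 1.35 and 1.07 in M5, M9 and M7, with 9 of the 10 markers at 0 in M5.

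Gk was higher in the gonadal than in the inguinal pad of every mouse, by 1.75, 2.22 and 3.37-fold in control mice M6, M7 and M10 and 1.497, 1.41 and 3.27-fold in knockout mice M5, M9 and M12. All 6 ratios were above 1, and the 2 largest were those of M10 and M12. Gonadal minus inguinal fat was 1.13 on the log2 scale (SE 0.28, limma adjusted p 0.0207) in control mice and 0.85 (SE 0.30, limma adjusted p 0.0577) in knockout mice, which did not pass. The control call was lost without M10 (0.88, adjusted p 0.0776 in limma) and without M7 (1.17, adjusted p 0.0919), while without M12 the knockout difference was 0.48 and passed (adjusted p 0.0387). Of 13 alternatives, 11 passed in control mice (adjusted p 0.000247 to 0.0919, limma, edgeR and DESeq2 together) and 3 in knockout mice (0.00265 to 0.152). A pseudogene, Gm14767, and an antisense gene, Gm14764, overlap Gk, with at most 1.22 FPKM for the first.

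**Figure D3:**
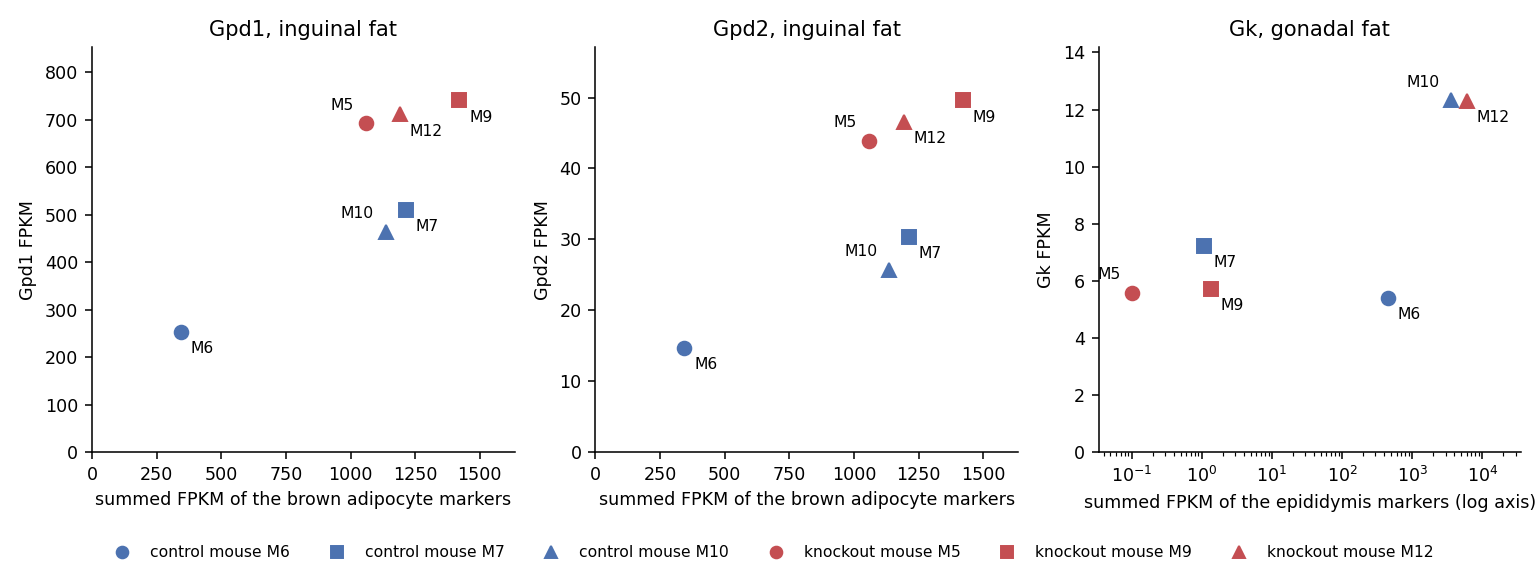
FPKM of Gpd1 and Gpd2 in inguinal pads against the summed FPKM of 8 brown adipocyte markers, and of Gk in gonadal pads against the summed FPKM of 10 epididymis markers (log axis), with 1 point per mouse. Control mouse M6 has the lowest marker sum and the lowest Gpd1 and Gpd2, and mice M10 and M12 have the highest epididymis sums and the highest Gk.

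Aqp7 encodes the aquaglyceroporin through which glycerol leaves the fat cell, and spans bases 41033074 to 41048139 of chromosome 4, minus strand. Gonadal levels were 29.1, 15.5 and 23.6 FPKM in control mice M6, M7 and M10 and 16.1, 31.4 and 22.9 FPKM in knockout mice M5, M9 and M12. Inguinal levels in the same order were 64.9, 85.5 and 80.5 FPKM in control and 72.4, 72.6 and 62.3 FPKM in knockout mice. The genotypes overlapped in both pads, and neither range held the other. The log2 difference was 0.04 (SE 0.31, 95% interval -0.73 to 0.81) in gonadal and -0.15 (SE 0.13, 95% interval -0.46 to 0.16) in inguinal fat, with limma adjusted p of 0.988 and 0.653. These signs turned to -0.22 and 0.13 with adipocyte centring, and the gonadal one turned to -0.19 without M9 and to -0.21 without M7.

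Between the pads, by contrast, Aqp7 was higher in inguinal fat in every mouse, by 2.23-fold to 5.52-fold. Gonadal minus inguinal fat was -1.77 (SE 0.24, limma adjusted p 0.00264) in control and -1.58 (SE 0.24, limma adjusted p 0.00323) in knockout mice. Centring on the adipocyte markers left -0.39 in control mice, which did not pass (limma adjusted p 0.0902), and -0.74 in knockout mice, which did.

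Pdk4 encodes a kinase that inactivates pyruvate dehydrogenase and so keeps pyruvate from oxidation, leaving it for carboxylation. It is a known FoxO target in muscle and liver and spans bases 5483351 to 5496309 of chromosome 6, minus strand. In gonadal fat it stood at 12.7, 5.83 and 10.2 FPKM in control mice M6, M7 and M10 and at 7.26, 5.60 and 5.58 FPKM in knockout mice M5, M9 and M12. Knockout mice M9 and M12 were the lowest of the 6 and control mice M6 and M10 the highest, but M7 lay below M5, so the groups overlapped. The gonadal log2 difference was -0.54 (SE 0.28, 95% interval -1.23 to 0.15), with a limma adjusted p of 0.661 and an exact permutation p of 0.2. It was -0.32 without M6 and -0.85 without M7.

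In inguinal fat Pdk4 stood at 49.7, 64.8 and 116.8 FPKM in control mice M6, M7 and M10, and at 71.0, 66.2 and 71.0 FPKM in knockout mice M5, M9 and M12. All 3 knockout mice lay within the wide range of the controls, of which M10 was the highest. The log2 difference was -0.06 (SE 0.30, 95% interval -0.79 to 0.67, limma adjusted p 0.964). It became 0.29 without M10, 0.06 with TMM factors and 0.22 after centring on the adipocyte markers, so its sign depended on the setting.

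Pdk4 had the widest pad gap of the 7 genes in knockout mice. Inguinal over gonadal FPKM was 9.79, 11.8 and 12.7 in knockout mice M5, M9 and M12, and 11.1 and 11.5 in control mice M7 and M10, whereas control mouse M6 had 3.91. Gonadal minus inguinal fat was -2.92 (SE 0.39, limma adjusted p 0.00251) in control and -3.40 (SE 0.11, limma adjusted p 0.000111) in knockout mice.

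**Figure D4:**
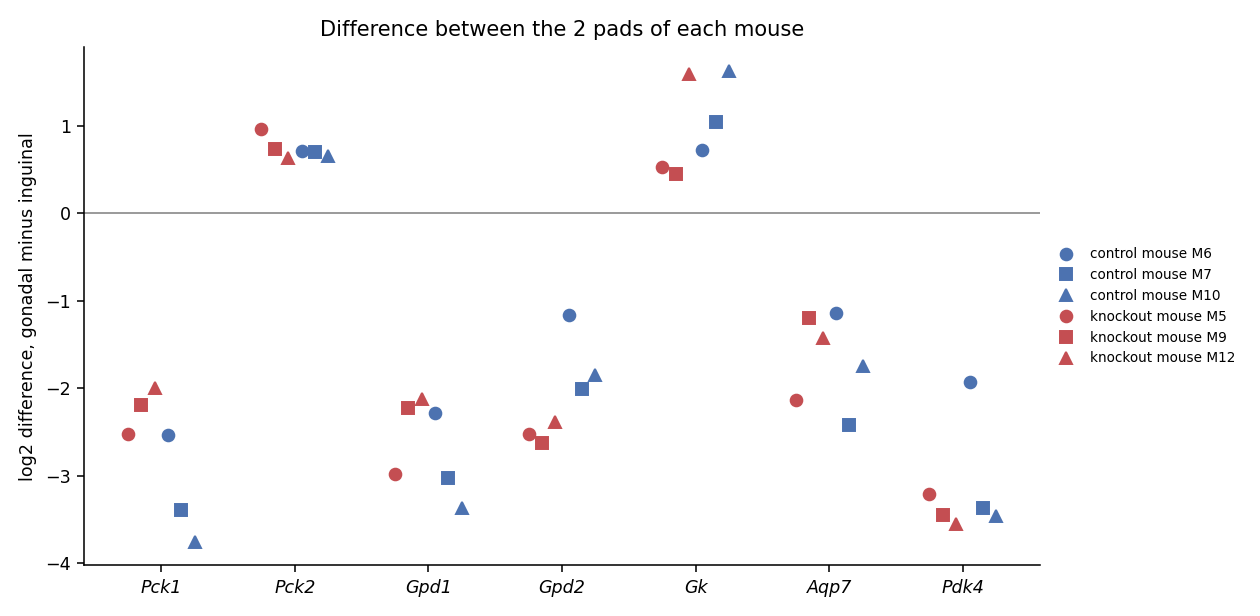
Log2 difference between the gonadal and the inguinal pad of each mouse (y axis) for the 7 genes, with 1 point per mouse and 0 marked by a line. All 6 mice lie on one side of 0 for each gene, and for Pck1 the knockout mice lie above the controls while for Gpd2 they lie below.

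In the authors' deposited tables, whose group means run over the 6 libraries of a group and which list only genes called changed, 3 of the 7 genes were listed for each pad. Gonadal fold changes in the authors' deposited table were 1.21 for Pck1, 1.21 for Gpd1 and -0.52 for Pdk4 on the log2 scale, with the authors' adjusted p for Pdk4 at 0.0347. Inguinal ones in the authors' deposited table were 0.77 for Gpd1, 0.92 for Gpd2 and 0.32 for Gk. The authors' adjusted p for Gk was 0.0433. The 6 libraries of a group come from 3 mice. Of the 16 alternative fits described here, 0 passed for gonadal Pdk4 and 0 for inguinal Gk. The authors' deposited tables list 1808 gonadal and 2220 inguinal genes in all.

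Markers of other cell types moved with some of these values. Apart from a fit with the skeletal muscle markers as a covariate, their part in the results was not tested. Control mouse M6 had the lowest inguinal Pck1, Gpd1, Gpd2 and Pdk4, and its summed FPKM of 8 brown adipocyte markers, at 344.5, was below the 1058 to 1421 of the other 5 inguinal pads. Of these 8 markers, 7 were higher in inguinal knockout mice (median 0.49), and Ucp1 was 9.51 to 53.4 FPKM in inguinal control pads and 19.4 to 71.4 FPKM in inguinal knockout pads, but at most 0.096 FPKM in gonadal pads. The inguinal sums were 1213 and 1136 in control mice M7 and M10 and 1058, 1421 and 1192 in knockout mice M5, M9 and M12. In gonadal fat 4 of the 8 brown adipocyte markers were abundant enough to test and all 4 were higher in knockout mice (median 0.78), with sums of 49.3 to 105.1 against 31.0 to 40.5 FPKM, beside the higher gonadal Pck1 and Gpd1. Adipocyte markers were higher in gonadal knockout mice for 8 of 10 and in inguinal ones for 3 of 10. Red blood cell markers were lower in knockout mice for 7 of 7 in each pad, at 1615 to 4191 against 4237 to 13630 summed FPKM in gonadal fat. The 8 macrophage markers and the 8 progenitor and fibroblast markers were all lower in inguinal knockout mice, with medians of -1.06 and -0.60. In gonadal knockout mice 8 of 8 macrophage (median -0.39), 7 of 8 progenitor and fibroblast (median -0.39), 8 of 8 lymphocyte (median -0.34) and 6 of 6 mesothelium markers (median -0.16) were lower. All 10 skeletal muscle markers were lower in inguinal knockout mice, at 62.5 to 446.8 against 148.2 to 886.4 summed FPKM. In gonadal knockout mice 7 of the 8 tested muscle markers were higher (median 0.46). With the muscle list as a covariate the inguinal difference was 0.79 for Gpd1 (SE 0.35), 0.98 for Gpd2 (SE 0.33) and 0.054 for Pck1 (SE 0.30). The unadjusted limma p of inguinal Gpd1 was then 0.0711 and no longer under 0.05, and its adjusted p was 0.475.

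The members also varied among mice of a pad in ways that tied some of them together. Across the 12 pads, after the mean of each pad type was subtracted, Pck1 correlated with Gpd1 at r = 0.838 and Gpd1 with Gpd2 at r = 0.722, while Pck2 ran against Gpd1 (r = -0.758) and Gpd2 (r = -0.766). Aqp7 and Pdk4 had no r beyond 0.402 in size with any other member. These are descriptions over 12 pads from 6 mice, which share mice, libraries and any genotype difference. Among 12151 genes, the gene most like Gpd1 was Agpat2, the acyltransferase that adds the second fatty acid to glycerol 3-phosphate (r = 0.99), followed by Cox19, Dlat, Mpc2 and Ptcd3. Dlat is a subunit of pyruvate dehydrogenase and Mpc2 of the mitochondrial pyruvate carrier.

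Pck1 was most like Acsl1, an enzyme that activates long-chain fatty acids (r = 0.937), then Cluh, Ffar4, Rad51d and Acad9. Gpd2 was most like Pygl, the liver-type glycogen phosphorylase (r = 0.974), then Rwdd3, Mrpl16, Hephl1 and Psmd12. The genes most like Gk were Npy, Bsph2, Prm2, Spata3 and Spem1 (r = 0.938 to 0.962), and Prm2 encodes a protamine of sperm. Pck2 was most like Slamf9, Pbxip1, Os9, Bmp2 and Ppt1 (r = 0.952 to 0.957) and Aqp7 most like Hrct1, Klhdc7a, Isca1, Smoc1 and Gstk1 (r = 0.906 to 0.931). Pdk4 had the weakest likeness, with Fv1, Zfp119a, Zfp809, Polr2m and Padi4 at 0.766 to 0.864.

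The steps on either side of the 7 genes were followed through 6 lists. Between knockout and control mice 0 list genes passed limma's adjusted p in either pad, and edgeR also called 0, so counts of genes at an unadjusted p under 0.05 are given, with the DESeq2 calls. At the unadjusted p, 4.4% of all genes were higher and 4.3% lower in gonadal fat. In inguinal fat 3.29% were higher and 11.6% lower. The lists were chosen with earlier results of these data known, so these shares are a background and not an independent test. DESeq2 called 205 higher and 108 lower of 14851 gonadal genes and 234 higher and 427 lower of 13621 inguinal genes. Genes that bring pyruvate into the mitochondrion and supply oxaloacetate were mostly higher in knockout mice. In gonadal fat 12 of 15 were higher and 3 lower (median log2 difference 0.57), with 9 higher and 1 lower at the unadjusted p and 8 higher with DESeq2. In inguinal fat 12 of 15 were higher (median 0.30), with 7 higher and 1 lower at the unadjusted p and 5 higher with DESeq2. The medians were 0.30 and 0.58 with adipocyte centring.

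Slc25a10, the mitochondrial dicarboxylate carrier, had 148.6 ± 27.9 FPKM in gonadal knockout pads against 70.4 ± 6.2 FPKM in their controls (SD, n = 3), and 332.2 ± 30.2 against 188.7 ± 39.4 FPKM in inguinal pads. Neither pair of groups overlapped, and the log2 differences were 1.06 (SE 0.16) and 0.83 (SE 0.17). Mpc2 was higher by 0.83 (SE 0.16) and Gpt2, which converts alanine to pyruvate, by 0.65 (SE 0.13) in gonadal fat. In inguinal fat Slc25a1, the citrate carrier, was at 968.7 ± 31.4 against 367.8 ± 177 FPKM, a log2 difference of 1.503 (SE 0.33). Pcx, the pyruvate carboxylase that makes oxaloacetate for the carboxykinases, was at 645.4 ± 66.7 against 331.9 ± 100.4 FPKM in inguinal fat, a difference of 0.997 (SE 0.23). These genes, like those named from the other lists, were picked for the smallest p in a pad. That their groups did not overlap is therefore no separate result. The limma adjusted p of these genes lay between 0.158 and 0.421.

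Pyruvate dehydrogenase is the enzyme that Pdk4 restrains. Of 11 genes of the complex, its kinases and its phosphatases, 7 had a higher mean in gonadal knockout mice (median 0.22) and 9 in inguinal ones (median 0.36), and the gonadal median turned to -0.04 with adipocyte centring. At the unadjusted p, 5 were higher in gonadal and 4 in inguinal fat, 0 were lower, and DESeq2 called 4 and 1 higher. Pdhb was at 124.9 ± 25.8 against 73.9 ± 2.9 FPKM in gonadal and 530.8 ± 13.2 against 298.4 ± 105.6 FPKM in inguinal fat. Dlat differed by 0.67 (SE 0.15) and 0.64 (SE 0.19), Pdhx by 0.52 (SE 0.10) in gonadal fat, and Pdha1 by 0.70 (SE 0.21) in inguinal fat.

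The list for the steps between phosphoenolpyruvate and triose phosphate differed between the pads in its counts. Of 9 tested genes in gonadal fat, 4 were higher and 5 lower in knockout mice (median -0.04), 0 had an unadjusted p under 0.05 and DESeq2 called 0. The gonadal genes with the smallest p were Tpi1, Fbp1 and Aldoa, with differences of 0.24 (SE 0.17), 1.14 (SE 0.81) and 0.17 (SE 0.15). In inguinal fat all 8 tested genes were higher (median 0.53), 6 at the unadjusted p, and DESeq2 called 5. The list also holds pyruvate kinase, which runs towards pyruvate only, and aldolase and fructose bisphosphatase genes, which act beyond triose phosphate. Its counts therefore cover more than the steps of glyceroneogenesis. Pkm was among the higher inguinal genes, at 551.2 ± 17.1 against 298.1 ± 39.0 FPKM. Eno1 was at 661.6 ± 4.9 against 394.9 ± 62.9 FPKM and Aldoa, the aldolase, at 2136 ± 50 against 1243 ± 243 FPKM, with no overlap for these 3 genes. Whether the list differed between pads was tested gene by gene only: 0 of 10 genes passed limma's adjusted p, and 3 were lower in the gonadal than in the inguinal effect at the unadjusted p.

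Among genes that use or remove glycerol 3-phosphate, 7 of 9 were higher in gonadal knockout mice (median 0.16, or -0.10 with adipocyte centring) and 3 of 9 in inguinal ones (median -0.12, or 0.16 centred). At the unadjusted p, 3 and 2 were higher and 0 lower, and DESeq2 called 2 higher in each pad. Agpat2 was at 291.4 ± 84.5 against 96.7 ± 19.5 FPKM in gonadal and 1048 ± 54 against 506.8 ± 167.3 FPKM in inguinal fat, without overlap, with log2 differences of 1.56 (SE 0.27) and 1.10 (SE 0.26). Gpat3, which adds the first fatty acid, differed by 0.97 (SE 0.19) in gonadal fat. Lpin1, a phosphatidate phosphatase that also acts as a coactivator, differed by 0.65 (SE 0.21) and 0.57 (SE 0.13). Gdpd3 was low in inguinal fat, at 0.431 against 0.763 FPKM.

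On the list of glycerol release and other glycerol channels and kinases, 7 of 9 genes were higher in gonadal knockout mice. The median was 0.36, or 0.092 with adipocyte centring, with 3 higher at the unadjusted p and 2 with DESeq2. The 3 were the lipase genes Lipe and Pnpla2 and their activator Abhd5. Lipe, the hormone-sensitive lipase, was at 194.1 ± 31.5 against 124.7 ± 11.9 FPKM, Pnpla2, the adipose triglyceride lipase, at 342.5 ± 16.7 against 267.5 ± 14.5 FPKM, and Abhd5 at 27.8 ± 0.9 against 21.9 ± 1.9 FPKM. In inguinal fat 3 of 6 were higher (median -0.01, or 0.27 with adipocyte centring), with 0 at the unadjusted p and 0 with DESeq2. Lipe differed there by 0.28 (SE 0.13), Mgll, the monoglyceride lipase, by 0.10 (SE 0.09) and Gk5, a relative of glycerol kinase, by -0.11 (SE 0.15).

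The last list held transcription factors and coactivators known to act on Pck1 or Pdk4, Foxo1 among them. In gonadal fat 12 of 19 were higher (median 0.08, or -0.18 with adipocyte centring), with 3 higher and 1 lower at the unadjusted p, and DESeq2 called 1 each way. The lower gene was Foxo1, and Esrra, a nuclear receptor of oxidative metabolism, was at 37.5 ± 2.3 against 29.0 ± 1.4 FPKM. In inguinal fat 6 of 20 were higher (median -0.09, or 0.19 centred), with 3 higher and 2 lower at the unadjusted p and 2 higher and 1 lower with DESeq2. Ppara, the fatty acid receptor that drives fasting genes, was at 10.4 ± 0.7 against 4.45 ± 2.36 FPKM there, a difference of 1.25 (SE 0.33).

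**Figure D5:**
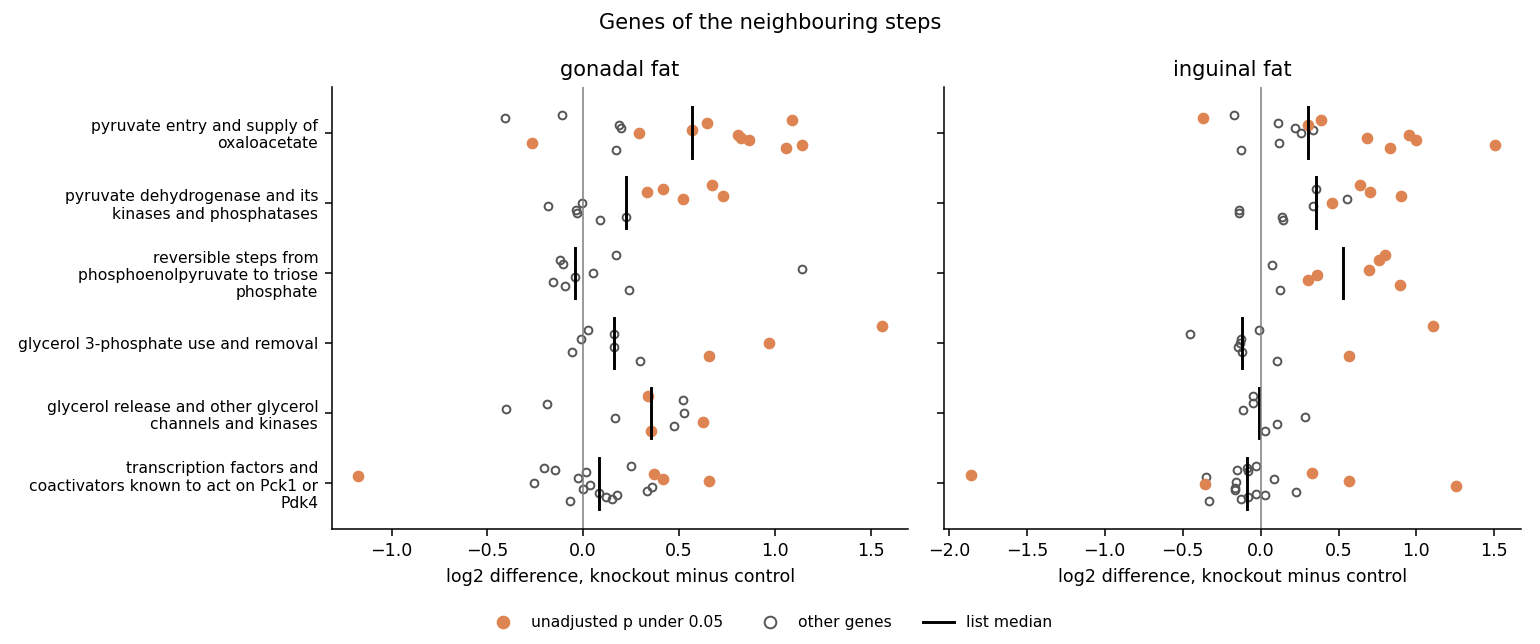
Log2 difference between knockout and control mice (x axis) for each tested gene of the 6 lists in gonadal and inguinal fat, with filled points for an unadjusted limma p under 0.05 and a bar at the list median. Genes of pyruvate entry lie mostly above 0 in both pads. On the phosphoenolpyruvate to triose phosphate list, which includes aldolase and fructose bisphosphatase genes, 8 of 8 inguinal and 4 of 9 gonadal genes lie above 0.

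Between the pads of control mice the lists were uneven. Pyruvate entry genes were lower in gonadal fat for 12 of 15, with 10 called lower and 2 called higher, and pyruvate dehydrogenase genes for 9 of 11, with 7 called lower and 1 higher. Of the 10 tested genes on the phosphoenolpyruvate to triose phosphate list, 7 were higher and 3 lower, with 2 and 1 called. Genes that use glycerol 3-phosphate were lower for 6 of 9, with 5 called lower and 1 higher. Those of glycerol release and other glycerol channels and kinases were lower for 5 of 8, with 4 called lower and 1 higher. The background in that comparison was 14.5% called lower and 26.9% called higher of all genes, by limma. These directions rested on the scaling: after adipocyte centring the list medians were 0.23 for pyruvate entry, 0.20 for pyruvate dehydrogenase, 0.68 for glycerol 3-phosphate use and 0.58 for glycerol release, all now higher in gonadal fat, beside a median of 1.57 for all genes.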

How the data were processed

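RNA-seq libraries were made from total RNA with Qiagen RNeasy and NEBNext Ultra kits, per the labels' protocols. CASAVA, STAR and mm10 are named, per the submitters' processing notes; the sources used here do not give the counting tool, its strand setting or the annotation release. The table of the whole series holds FPKM, which the authors scaled by the listed gene length and the reads assigned to genes. The comparison tables hold, per the file headers, deposited read counts, group means as a scaled signal, a log2 fold change and a p-value, all made by the authors and only for genes called changed.

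Library names carry no replicate number of the labels, so columns were mapped to groups: f as control and z as knockout (each deposited group mean equals a weighted sum of those columns), and e as gonadal and s as inguinal. That reading was inferred, as was reading the numbers as mice. The 2 libraries of a pad correlated at r = 0.991 to 0.996 and those of different mice at 0.897 to 0.985, and were averaged. Whether they are repeat preparations or pieces of tissue is not given.

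Genes with a mean of at least 0.5 FPKM entered a two-sided limma test with a trend (limma 3.58.1, R 4.3.3) of log2(FPKM + 0.5), adjusted over all genes by Benjamini-Hochberg at a threshold of 0.05; the scale understates changes of low genes. All 7 members passed the filter in every comparison. Read counts rebuilt from deposited FPKM were whole for 100% of values (tolerance 0.001) and equal to 48336 of 48336 deposited counts. They were summed per pad and tested with edgeR 4.0.16 and DESeq2 1.42.0. Other alternatives were the pseudocount (0.1 or 1), the filter (none or 2 FPKM), each library as a replicate, TMM factors, centring on adipocyte markers, a muscle covariate, each mouse left out, and the mouse as a block between pads. The limma step was checked on simulated counts, drawn for each gene independently. These held no shared differences in cell content, so they do not test limma under the conditions of these pads. Exact permutation tests used the 20 regroupings of 6 mice.

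The members and the gene lists were chosen with earlier results of these data known. Named genes are the members, Foxo1, up to 3 genes of each list with the smallest p in each pad, and the 5 genes most like each member (mean of at least 1 FPKM); adipocyte and brown adipocyte genes were named as markers, and overlapping genes from GENCODE. Of 169 list genes 1 was not found. Promoter windows came from RefSeq (GRCm38.p6).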

Additional observations from a re-analysis of the deposited data

How the results depend on the processing

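Taking each library as a replicate in limma gave 1125 instead of 0 gonadal genes between genotypes, 2189 instead of 3 inguinal genes, 2399 instead of 0 for the mean of both pads, 265 instead of 0 for the difference between the pads' effects, and 9100 instead of 6010 between the pads of control mice. DESeq2 gave 313, 661, 666 and 16 in the 4 comparisons that involve genotype. Adipocyte centring gave 14 for the mean of both pads, 13201 between the pads of control mice and 11424 instead of 6971 in knockout mice. A minimum of 2 FPKM gave 1 for the mean of both pads, and the muscle covariate gave 0 inguinal genes. With 1 mouse left out the counts were 0 to 1 gonadal (1 without M10), 0 to 78 inguinal (78 without M7), 0 to 9 for the mean of both pads (9 without M7), 1534 to 5257 between pads in control mice (1534 without M10) and 3047 to 5911 in knockout mice (3047 without M5, 4138 without M9).

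With the mouse as a replicate block, the counts were 5092 in control and 6365 in knockout mice and 0 for the difference between effects, and the block changed no call of the 7 genes. No paired analysis was possible between genotypes because the mice differ and the columns carry no replicate number of the labels. Of the values for the 7 genes, 572 kept direction and side of the threshold, 18 passed only under the alternative, 7 passed only in the fit reported, and 26 changed sign; no value whose reported limma p passed changed sign.

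Sign changes by genotype in gonadal fat were Gpd2 -0.066 and Aqp7 -0.22 with adipocyte centring and Aqp7 -0.082 with the muscle covariate, and with 1 mouse out Gk ran from -0.44 to 0.22 and Aqp7 from -0.21 to 0.28. In inguinal fat they were Aqp7 0.13 and Pdk4 0.22 with centring and Pdk4 0.058 with TMM factors, and Pdk4 ran from -0.33 without M6 to 0.29 without M10. For the mean of both pads they were Aqp7 0.010 with TMM factors and 0.015 with DESeq2, and with 1 mouse out Gk ran from -0.12 to 0.23 and Aqp7 from -0.19 to 0.048. For the difference between effects they were Pck2 -0.0096 with TMM factors, -0.0055 with edgeR and -0.46 with centring, and Gpd1 -0.086 and Aqp7 -0.35 with centring; with 1 mouse out Pck2 ran from -0.0091 to 0.16, Aqp7 from -0.14 to 0.50 and Pdk4 from -0.76 to 0.0099. The cause was not tested. Depth limited Gk most, with 226 to 1113 reads a library, and 3 mice a group limited every genotype test.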
